A study of Mus musculus with 2 samples.

Results

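The genes of the platelet-derived growth factor (PDGF) system were followed through the cell types of the mouse dorsal root ganglion (DRG). They were chosen by symbol and are 6 of the 32285 genes in the files, namely the 4 ligand genes *Pdgfa*, *Pdgfb*, *Pdgfc* and *Pdgfd* and the 2 receptor genes *Pdgfra* and *Pdgfrb*. All 6 passed the filter on low counts and were among the 17863 genes tested. The data are single-cell RNA-seq of L4 and L5 DRGs from C57BL/6 female mice of 3 months that had no injury or treatment. There were 2 samples, replicates 1 and 2, of this same condition, so comparisons were made between cell types. How many animals each sample pools is not given in the sources used here, and p-values measure the spread between these 2 samples only.

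PDGF ligands are secreted as dimers and bind receptor tyrosine kinases on neighbouring cells. As background, PDGF-AA and PDGF-CC act mainly through the alpha receptor encoded by *Pdgfra*, PDGF-DD acts mainly through the beta receptor encoded by *Pdgfrb*, and PDGF-BB binds both. PDGF-A and PDGF-B are processed inside the cell, whereas PDGF-C and PDGF-D are secreted in a latent form that proteases outside the cell cleave. In blood vessels, PDGF-B from endothelial cells is known to recruit mural cells, the pericytes and smooth muscle cells of the vessel wall, which carry the beta receptor. In peripheral nerve and ganglia, the alpha receptor is widely used as a marker of fibroblasts.

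Ligands and receptors differed in the cell types that held them, with overlap in mural cells and fibroblasts. Both receptors stood highest in cells of connective tissue and vessel wall, *Pdgfra* in fibroblasts at 195 CPM in either sample and *Pdgfrb* in mural cells at 366 and 340 CPM (replicates 1 and 2). The ligands were spread more widely. *Pdgfa* was highest in mural cells, *Pdgfb* and *Pdgfd* in endothelial cells, and *Pdgfc* in satellite glial cells (SGCs), which wrap the neuronal cell bodies. Levels are in CPM, the UMIs of a gene per 1000000 UMIs of all cells of a type in a sample, where a UMI (unique molecular identifier) marks a captured transcript.

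The files held 119101743 UMIs in replicate 1 and 128668771 in replicate 2, and 16680 cells were retained. These were named as 8407 SGCs, 3474 myelinating Schwann cells, 1451 non-myelinating Schwann cells, 1292 fibroblasts, 690 mural cells, 511 macrophages, 434 neurons and 421 endothelial cells. Fibroblasts were named without *Pdgfra* and mural cells without *Pdgfrb*. The 16 genes of 8 marker pairs were each highest in their own type in both samples and past the threshold there. Among them were *Col1a1* and *Dcn* in fibroblasts and *Rgs5* and *Notch3* in mural cells. These genes were also among the markers used for naming, so this outcome was largely fixed in advance and is no independent check. The summed profiles ranged from 481118 UMIs (neurons, replicate 1) to 64199143 UMIs (SGCs, replicate 2), so that values of neurons are the least precise. The 2 samples shared 135 cell barcodes. The largest share of empty-droplet RNA that no pair gene of another type contradicted was 0% to 6.35% of a profile. The 0% belonged to neurons of replicate 2, where it rested on *Pecam1* having no UMI, so subtraction removed nothing from that profile.

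The 6 genes lie at separate places in the genome. In GENCODE M21 on GRCm38, *Pdgfa* lies at chr5:138976014-138997370 on the minus strand, *Pdgfb* at chr15:79995874-80014977 on the minus strand, and *Pdgfc* at chr3:81036416-81214040 on the plus strand. *Pdgfd* lies at chr9:6168584-6378850 and *Pdgfra* at chr5:75152292-75198215, each on the plus strand. *Pdgfra* has 23 exons and *Pdgfrb* 24 exons in the longest transcript, against 6 or 7 exons in the ligand genes. A gene on the opposite strand overlaps *Pdgfa* (*6330403L08Rik*), *Pdgfb* (*Gm41361*), *Pdgfc* (*Gm16000*), *Pdgfd* (*Ddi1*) and *Pdgfra* (*Gm42802*). The strand setting of the counting is not given in the sources used here, so reads of such a pair are not known to be kept apart.

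RefSeq promoters on GRCm38.p6, from 250 bases before to 50 bases after a start site, were at hand for 4 of the 6 genes, which differed in the cell type of their highest level. They are shown to let the sequence before each start site be read beside the pattern across cell types. Capitals mark matches on either strand to the GC box (GGGCGG), the TATA box (TATAAA), the AP-1 site (TGANTCA) or the CArG box, which smooth muscle genes are known for. No motif searched overlaps another in these windows.
Pdgfc, chr3:81036166-81036465, plus strand: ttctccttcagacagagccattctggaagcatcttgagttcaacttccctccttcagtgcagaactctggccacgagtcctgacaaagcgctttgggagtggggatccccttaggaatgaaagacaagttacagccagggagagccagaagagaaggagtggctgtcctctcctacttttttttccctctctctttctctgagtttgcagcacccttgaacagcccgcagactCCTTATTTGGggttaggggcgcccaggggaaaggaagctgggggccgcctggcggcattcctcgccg
Pdgfd, chr9:6168236-6168535, plus strand: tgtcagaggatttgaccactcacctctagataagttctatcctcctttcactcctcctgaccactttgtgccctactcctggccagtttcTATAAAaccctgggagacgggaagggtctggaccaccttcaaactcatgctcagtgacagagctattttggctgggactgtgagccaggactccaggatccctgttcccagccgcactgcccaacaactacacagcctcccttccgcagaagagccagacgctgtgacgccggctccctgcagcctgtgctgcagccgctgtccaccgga
Pdgfra, chr5:75152001-75152300, plus strand: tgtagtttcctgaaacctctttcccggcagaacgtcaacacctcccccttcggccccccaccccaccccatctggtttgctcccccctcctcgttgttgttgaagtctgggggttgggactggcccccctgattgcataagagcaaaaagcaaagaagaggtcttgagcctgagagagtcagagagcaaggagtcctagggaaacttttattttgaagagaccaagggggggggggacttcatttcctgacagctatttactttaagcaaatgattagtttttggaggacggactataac
Pdgfa upstream start, chr5:138994895-138995194, minus strand: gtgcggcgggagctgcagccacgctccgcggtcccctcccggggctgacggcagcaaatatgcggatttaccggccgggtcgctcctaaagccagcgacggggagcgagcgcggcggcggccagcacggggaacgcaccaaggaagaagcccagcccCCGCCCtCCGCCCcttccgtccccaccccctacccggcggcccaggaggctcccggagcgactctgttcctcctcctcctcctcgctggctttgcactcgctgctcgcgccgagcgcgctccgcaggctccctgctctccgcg
Pdgfa downstream start, chr5:138994232-138994531, minus strand: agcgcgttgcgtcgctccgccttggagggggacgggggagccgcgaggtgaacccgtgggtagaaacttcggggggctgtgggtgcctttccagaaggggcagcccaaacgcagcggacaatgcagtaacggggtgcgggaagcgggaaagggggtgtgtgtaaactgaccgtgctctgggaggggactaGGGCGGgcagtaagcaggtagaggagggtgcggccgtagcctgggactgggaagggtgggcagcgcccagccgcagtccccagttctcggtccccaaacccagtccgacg

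The promoters of *Pdgfa* were rich in G and C, with 73.3% GC and 37 CpG at the upstream start and 67.0% GC and 24 CpG at the other, against a median of 52.7% and 7 CpG over 32851 promoters. A GC box was present in both of them, as in 35.7% of all promoters. The window of *Pdgfd* held a TATA box 160 bases before the start site, as 13.6% of promoters held such letters, and that of *Pdgfc* held a CArG box 17 bases before it, against 1.63% of all promoters. The window of *Pdgfra* held none of these letters. Such matches are letters in a window and say nothing of which factor binds there.

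**Figure D1:**
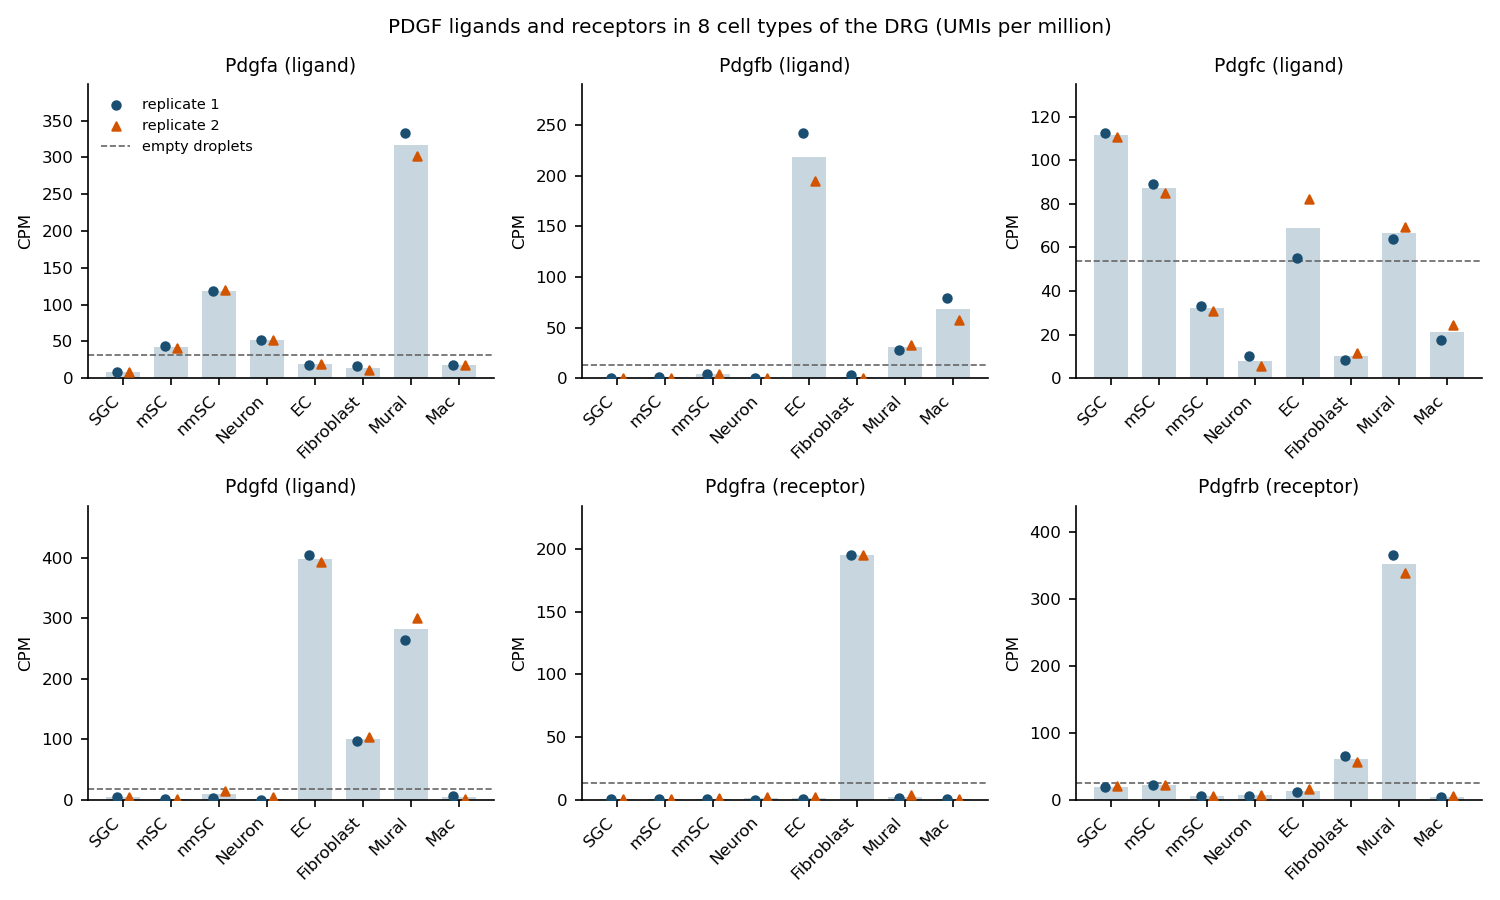
Level of each PDGF ligand and receptor (CPM, y axis) in the 8 cell types (x axis: mSC and nmSC, myelinating and non-myelinating Schwann cells; EC, endothelial cells; Mac, macrophages). Bars are means of the 2 samples, points the samples and dashed lines the mean level in empty droplets. *Pdgfra* stands above 100 CPM in fibroblasts alone, and *Pdgfc* is the ligand with the most even spread over types.

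*Pdgfa*, which encodes the ligand chain PDGF-A, stood at 333 CPM in mural cells of replicate 1 and 302 CPM in those of replicate 2 (317 ± 22.0, SD, n = 2). Non-myelinating Schwann cells, the glia of unmyelinated axons, came next with 119 and 119.6 CPM. Mural cells were thus above every other type in both samples. Neurons had 52.0 and 52.3 CPM and myelinating Schwann cells 44.0 and 40.5 CPM. The remaining types were lower, with 18.4 and 19.5 CPM in endothelial cells, 17.7 and 17.9 CPM in macrophages, 16.7 and 10.6 CPM in fibroblasts, and 8.40 and 8.54 CPM in SGCs.

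In edgeR's quasi-likelihood test the log2 fold change of *Pdgfa* in mural cells against the mean of the other types, taken on the log scale, was 3.57 (SE 0.084, adjusted p = 2.4e-16). Mural cells exceeded non-myelinating Schwann cells by a log2 fold change of 1.49 (SE 0.12, adjusted p = 1.5e-08, edgeR), where 19.5% of all genes tested were higher in mural cells. Non-myelinating Schwann cells exceeded neurons by 1.36 (SE 0.21), a pair in which 19.6% of genes were called. The step from neurons to myelinating Schwann cells (log2 fold change 0.02, SE 0.23) did not pass the threshold, nor did that from endothelial cells to macrophages. In CPM the samples of these pairs did not overlap. The steps from myelinating Schwann cells to endothelial cells (1.22), from macrophages to fibroblasts (0.59) and from fibroblasts to SGCs (0.49) passed, in pairs where 25.5%, 26.4% and 26.2% of genes did so in that direction. Of the glia, then, non-myelinating Schwann cells held the most *Pdgfa* and SGCs the least.

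After each cell was thinned to 1000 UMIs, a UMI of *Pdgfa* was found in 31.4% of mural cells in replicate 1 (exact binomial 95% interval 26.8 to 36.3) and in 29.5% in replicate 2 (24.5 to 35.0). In SGCs it was found in 0.741% (0.507 to 1.04) and 1.15% (0.847 to 1.53). Without thinning, 86.4% of mural cells held one at a median depth of 8686.5 UMIs, against 10.6% of SGCs at 14165 UMIs. Such intervals cover counting error only. Empty droplets had 34.3 and 27.7 CPM of *Pdgfa*, above the level in SGCs.

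The neurons counted above are mostly shallow, with a median of 846.5 UMIs per cell, because an upper cutoff on UMIs removed most cells of a cluster of deep neurons. That cluster had 55 and 54 cells with a median of 110283 and 92083.5 UMIs, of which 49 and 41 exceeded the cutoff of 46561 UMIs. Its *Pdgfa* level was 76.7 CPM in replicate 1 and 66.1 CPM in replicate 2, with a UMI in 87.3% and 81.5% of cells. The other 5 genes lay between 0.170 and 4.96 CPM there. With these neurons kept, *Pdgfa* was called higher in neurons against the other types.

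*Pdgfb* encodes the PDGF-B chain, the ligand that binds both receptors. Endothelial cells had 242 and 195 CPM (218 ± 33.2, SD, n = 2), more than every other type in both samples. Macrophages followed with 78.9 and 57.6 CPM and mural cells with 28.3 and 33.0 CPM. The macrophage profiles also held markers of other leukocytes, with summed levels of 4240 and 1797 CPM over 5 neutrophil markers and 284 and 381 CPM over 5 monocyte markers, none of them at 0 in both samples. At a resolution of 1.2 an unnamed cluster of 54 cells without macrophage markers among its leading genes stood apart, with 37.5 and 30.3 CPM of *Pdgfb*, and the macrophage cluster then had 86.3 and 64.0 CPM. The part of neutrophil and monocyte RNA in these levels was not tested. Non-myelinating Schwann cells had 4.07 and 4.58 CPM, and fibroblasts 2.69 and 0.499 CPM. In fibroblasts of replicate 1, 17 of 19 UMIs lay in 5 cells. Myelinating Schwann cells and SGCs stayed below 1 CPM in both samples.

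No UMI of *Pdgfb* was found in the 434 neurons, where 3 UMIs would have been 6.24 CPM in replicate 1 and 5.60 CPM in replicate 2. On this floor per sample, *Pdgfb* was at least 38.8-fold lower in neurons than in endothelial cells in replicate 1 and at least 34.8-fold lower in replicate 2. The deep neurons held 6 and 3 UMIs, or 1.02 and 0.551 CPM. Because of these zeros the fitted contrasts of *Pdgfb* against the mean of the other types depend on the prior count. That of endothelial cells was 6.97 with neurons and 5.75 (SE 0.14, adjusted p = 7.6e-15, edgeR) without them.

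Endothelial cells exceeded macrophages in *Pdgfb* by a log2 fold change of 1.49 (SE 0.18, adjusted p = 2.5e-06, edgeR), a pair in which 22.5% of all genes were higher in endothelial cells. Macrophages exceeded mural cells by 1.32 (SE 0.22), and mural cells exceeded non-myelinating Schwann cells by 2.89 (SE 0.33). The share of genes called in the former pair was 26.1%. Non-myelinating Schwann cells were above fibroblasts by 1.55 (SE 0.52, adjusted p = 0.024, edgeR), where 18.7% of genes were called. From fibroblasts on, no type passed the threshold against the next in this order. After thinning, 17.6% (12.5 to 23.9) and 12.1% (8.09 to 17.3) of endothelial cells had a UMI, against 1 of 4321 and 1 of 4085 SGCs. The full counts, with a median of 15111 UMIs per endothelial cell, gave 77.9% there and 0.523% in SGCs.

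The UMIs of *Pdgfb* outside the endothelium were spread over many cells. In mural cells, 72 cells of each sample shared 100 and 104 UMIs, and the 5 cells with the most held 20 and 15 of them. In macrophages, 120 and 98 cells shared 299 and 209 UMIs. Without the cells called doublets, macrophages kept 83.6 and 60.4 CPM and mural cells 31.1 and 33.0 CPM. Within the endothelium, the small cluster led by *Ctla2a* and *Ccl21a*, with *Selp*, *Plvap* and *Vwf* also among its leading genes, had 125 and 83.8 CPM of *Pdgfb* in 26 and 22 cells. The main cluster, led by *Flt1* and *Cldn5*, had 256 and 206 CPM, a difference that was not tested.

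*Pdgfc*, the gene of a ligand that is secreted in latent form, was highest in glia. SGCs had 112 and 111 CPM (112 ± 1.12, SD, n = 2) and myelinating Schwann cells 89.3 and 84.9 CPM. Mural cells had 63.9 and 69.4 CPM and endothelial cells 55.4 and 82.4 CPM. Non-myelinating Schwann cells had 33.2 and 30.9 CPM, macrophages 17.7 and 24.3 CPM, fibroblasts 8.48 and 11.7 CPM, and neurons 10.4 and 5.60 CPM from 5 and 3 UMIs. SGCs, the most abundant cells, held 80.4% and 78.1% of all UMIs of *Pdgfc* in named cells. Over all genes they held 64063229 of 98778584 UMIs in replicate 1 and 64199143 of 103523397 UMIs in replicate 2. Of the 6 PDGF genes, *Pdgfc* had the most types above the mean, with 4.

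*Pdgfc* in SGCs exceeded the mean log level of the other types by a log2 fold change of 2.06 (SE 0.11, adjusted p = 2.2e-11, edgeR). The step from SGCs to myelinating Schwann cells was small, at 0.46 (SE 0.13, adjusted p = 0.0091, edgeR), in a pair where 24.8% of genes were higher in SGCs. This step was 0.073 (adjusted p = 0.69, edgeR) without the cluster of SGCs led by *Pou3f1*, and 0.077 (adjusted p = 0.92, edgeR) with equal numbers of cells. The next step, to endothelial cells, was 0.39 (SE 0.15, adjusted p = 0.037, edgeR). Endothelial and mural cells overlapped, with a difference of 0.03 (SE 0.17). Mural cells exceeded non-myelinating Schwann cells by 1.13 and macrophages exceeded fibroblasts by 1.2. The steps from non-myelinating Schwann cells to macrophages and from fibroblasts to neurons did not pass the threshold.

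The clusters of SGCs were unequal in *Pdgfc*. The cluster led by *Pou3f1* and *Ednrb* had 241 and 239 CPM in 1062 and 956 cells. This cluster held 2669 and 2778 CPM of *Fabp7*, an SGC marker. In the cluster led by *2900052N01Rik* and *Hes5*, *Fabp7* stood at 14383 and 14284 CPM and *Pdgfc* at 46.3 and 47.6 CPM. The 3 remaining clusters lay between 67.1 and 131 CPM of *Pdgfc*. *Pdgfrb* was lowest where *Pdgfc* was highest, with 7.85 and 7.83 CPM in the cluster led by *Pou3f1* against 28.8 and 30.1 CPM in that led by *2900052N01Rik* and *Hes5*. These are values of clusters in the same 2 samples and were not tested.

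**Figure D2:**
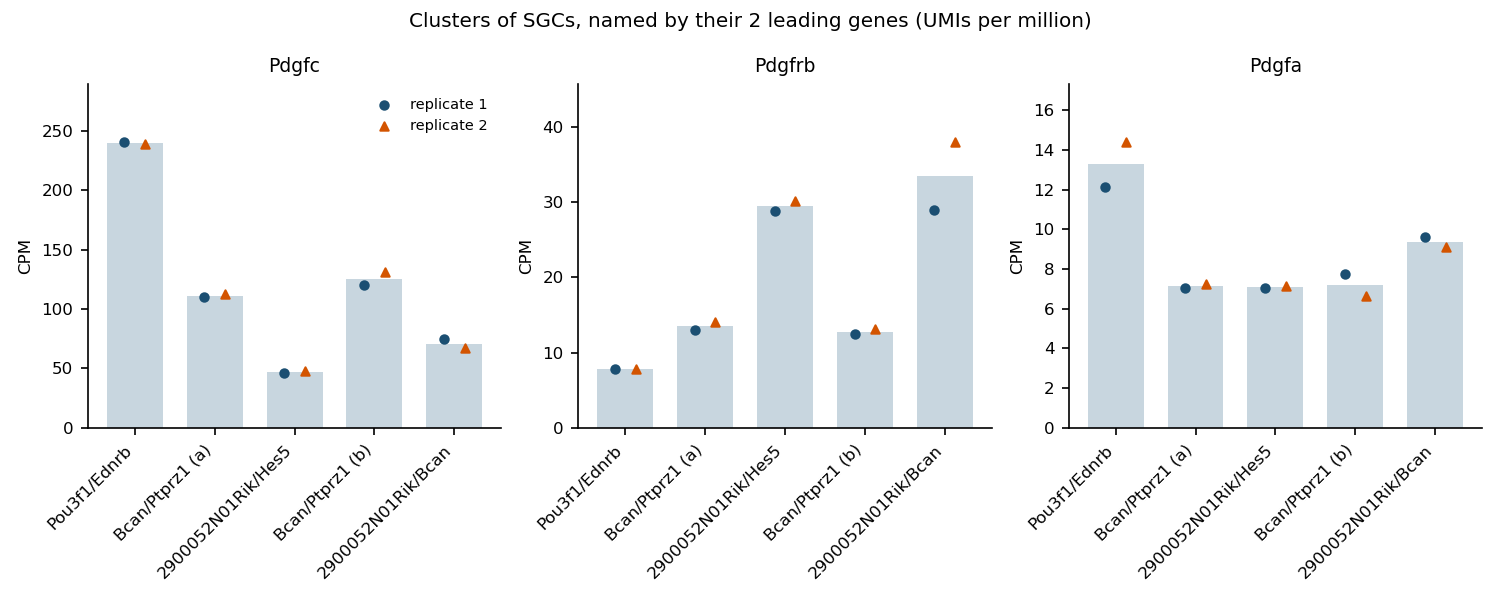
Level (CPM, y axis) of *Pdgfc*, *Pdgfrb* and *Pdgfa* in the 5 clusters of SGCs, each named by its 2 leading genes. Bars are means and points the 2 samples; *Pdgfc* is highest and *Pdgfrb* lowest in the cluster led by *Pou3f1*.

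Thinned SGCs had a UMI of *Pdgfc* in 10.5% (9.56 to 11.4) and 10.7% (9.77 to 11.7) of cells, against 0.567% (0.117 to 1.65) and 1.07% (0.463 to 2.10) of fibroblasts. From the full counts these were 57.7% of SGCs and 6.42% of fibroblasts, whose median depth was 14165 and 12481 UMIs. Empty droplets had 56.2 and 51.9 CPM, the highest of the 6 genes. The opposite-strand gene *Gm16000* had 251 and 184 UMIs in SGCs, against 7198 and 7112 UMIs of *Pdgfc*.

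*Pdgfd*, the gene of the other latent ligand, belonged to vessels and fibroblasts. Endothelial cells had 405 and 393 CPM (399 ± 8.60, SD, n = 2), mural cells 263 and 300.3 CPM, and fibroblasts 97.4 and 104 CPM. The samples of these 3 types did not overlap. Non-myelinating Schwann cells had 3.21 and 14.6 CPM, macrophages 6.60 and 0.827 CPM, and SGCs 3.90 and 3.66 CPM. Myelinating Schwann cells had 0.675 and 1.10 CPM and neurons 0 and 2 UMIs. In non-myelinating Schwann cells, 15 UMIs lay in 12 cells of replicate 1 and 80 UMIs in 34 cells of replicate 2, of which the 5 highest cells held 36. In macrophages of replicate 1, all 25 UMIs lay in 5 cells, and 12 of them in cells called doublets.

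The log2 fold change of *Pdgfd* in endothelial cells was 5.37 against the mean of the other types (SE 0.19, adjusted p = 6.4e-14, edgeR). Without replicate 2, which held the only UMIs of *Pdgfd* in neurons, it was 6.56. The difference between endothelial and mural cells was 0.48 (SE 0.24, adjusted p = 0.13, edgeR) and did not pass the threshold, where 19.7% of all genes were higher in endothelial cells. It passed at a clustering resolution of 0.4, with a log2 fold change of 0.54 (adjusted p = 0.026, edgeR). Mural cells were above fibroblasts by 1.5 (SE 0.24), a pair with 16.5% of genes called, and fibroblasts above non-myelinating Schwann cells by 3.50 (SE 0.33), a pair with 22.3% called. Below these, no pair of neighbouring types passed the threshold. After thinning, 24.6% (18.6 to 31.4) and 26.2% (20.4 to 32.6) of endothelial cells and 18.6% (14.8 to 22.9) and 22.7% (18.2 to 27.8) of mural cells had a UMI. Of myelinating Schwann cells, 0 of 1701, where the exact interval reaches 0.217%, and 1 of 1738 had a UMI. The unthinned shares were 78.9%, 57.4% and 0.518%. Empty droplets had 15.7 and 18.6 CPM.

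Most endothelial cells held both of their main ligands. Of 189 and 232 endothelial cells, 72.5% and 64.7% had UMIs of *Pdgfb* and *Pdgfd*, and 3.70% and 17.7% had neither. Endothelial cells with a UMI of *Pdgfb* were deeper, with medians of 17510.5 and 18630 UMIs against 7916 and 4359 UMIs without, and the part of depth in this overlap was not tested.

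*Pdgfra* encodes the alpha receptor. Fibroblasts had 1380 and 1954 UMIs, or 195 and 195 CPM (195 ± 0.179, SD, n = 2), and held 97.7% and 97.0% of its UMIs in named cells. No other type exceeded 3.48 CPM in either sample. The 2 samples of every other pair of neighbours in the order overlapped. Mural cells came next with 4 and 11 UMIs, which lay in 1 and 2 cells. All 4 in replicate 1 and 8 of the 11 in replicate 2 were in cells called doublets. The log2 fold change of fibroblasts was 7.83 against the mean of the other types (SE 0.13, adjusted p = 5.7e-18, edgeR) and 6.42 against mural cells (SE 0.24, adjusted p = 9.0e-13, edgeR), where 19.6% of genes were higher in fibroblasts. The size of these folds rests on few UMIs outside fibroblasts, and the latter was 11.05 once RNA of empty droplets was subtracted.

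After thinning, a UMI of *Pdgfra* was found in 17.2% (14.1 to 20.7) and 17.8% (15.1 to 20.7) of fibroblasts. It was found in 2 of 4321 and 0 of 4085 SGCs, where the exact interval of the latter reaches 0.0903%. The full counts gave 71.8% of fibroblasts (median of 12481 UMIs) and 0.393% of SGCs (14165 UMIs). Empty droplets had 12.3 and 14.1 CPM.

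*Pdgfrb*, the gene of the beta receptor, at chr18:61045150-61085061 on the plus strand, was the receptor of mural cells, with 366 and 340 CPM (353 ± 18.7, SD, n = 2). Fibroblasts had 65.2 and 57.1 CPM, myelinating Schwann cells 22.3 and 21.8 CPM, and SGCs 18.6 and 20.8 CPM. Endothelial cells had 10.8 and 16.4 CPM, neurons 6.24 and 7.47 CPM, non-myelinating Schwann cells 4.93 and 5.49 CPM, and macrophages 3.43 and 5.79 CPM. The level in each glial type was below that in empty droplets, 26.8 and 23.3 CPM, although the SGC cluster led by *2900052N01Rik* and *Hes5* stood above it. Empty-droplet RNA was put at no more than 1.07% and 1.86% of the SGC profiles. SGCs, the most abundant cells, held 36.2% and 39.6% of the UMIs of *Pdgfrb* in named cells, and mural cells 39.4% and 31.8%. In endothelial cells, 31 of 36 and 43 of 63 UMIs lay in 5 cells each, and without cells called doublets the level was 7.33 and 11.3 CPM.

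The log2 fold change of *Pdgfrb* in mural cells was 4.78 against the mean of the other types (SE 0.089, adjusted p = 1.1e-17, edgeR) and 2.55 against fibroblasts (SE 0.12, adjusted p = 1.5e-11, edgeR). Fibroblasts exceeded myelinating Schwann cells by 1.41 (SE 0.13), a pair in which 27.6% of genes were higher in fibroblasts. The step from myelinating Schwann cells to SGCs did not pass the threshold (0.06, SE 0.12). SGCs exceeded endothelial cells by 0.68 (SE 0.17, adjusted p = 0.0024, edgeR), where 29.0% of genes were called. After thinning, 30.4% (25.8 to 35.2) and 27.9% (23.0 to 33.3) of mural cells had a UMI. Of macrophages, 0 of 265, where the exact interval reaches 1.38%, and 1 of 237 had one. The full counts gave 90.6% of mural cells (median of 8686.5 UMIs) and 4.89% of macrophages (11929 UMIs).

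**Figure D3:**
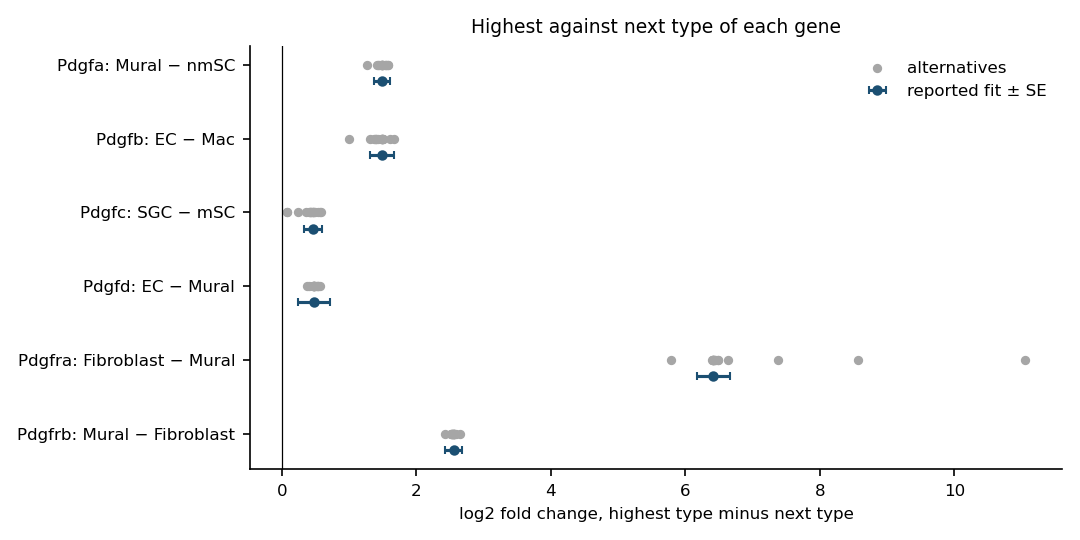
Log2 fold change (x axis) of each gene in its highest type against the next type (y axis, abbreviated as in the plot of levels). Blue points are the reported fit with its SE and grey points the alternatives in processing and the fits that leave out a sample. All points lie above 0, with *Pdgfc* and *Pdgfd* closest to it.

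Over the 6 genes, 19 of the 42 pairs of neighbouring types in the order of levels passed the threshold, against 16.5% to 29.0% of all genes in a single direction in the pairs given above. The pairs were ordered by the level of each gene itself, so nothing is read from this count. Each of the 4 highest levels of *Pdgfb* and the 2 highest of *Pdgfa* passed against the level below it.

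Fibroblasts fell into 3 clusters that carried the receptors in different amounts. The cluster led by *Apod* and *Dcn* had 290.1 and 279 CPM of *Pdgfra*, that led by *Mgp* and *Ecrg4* 117 and 104 CPM, and that led by *Igfbp6* and *Dcn* 72.2 and 88.5 CPM. *Pdgfd* was highest in the cluster led by *Mgp* and *Ecrg4*, with 180.0 and 208 CPM, against at most 61.2 CPM in the cluster led by *Apod* and 9.63 and 38.9 CPM in that led by *Igfbp6*. *Pdgfrb* varied less, from 28.9 to 89.1 CPM. The cluster led by *Igfbp6* also held the perineurial markers *Lypd2* and *Cldn1* among its 50 leading genes, with 527 and 389 CPM of *Cldn1*. In single fibroblasts, UMIs of both receptors were found in 34.1% and 36.0% of cells, of *Pdgfra* alone in 206 and 267 cells, of *Pdgfrb* alone in 58 and 75 cells, and of neither in 87 and 144 cells.

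**Figure D4:**
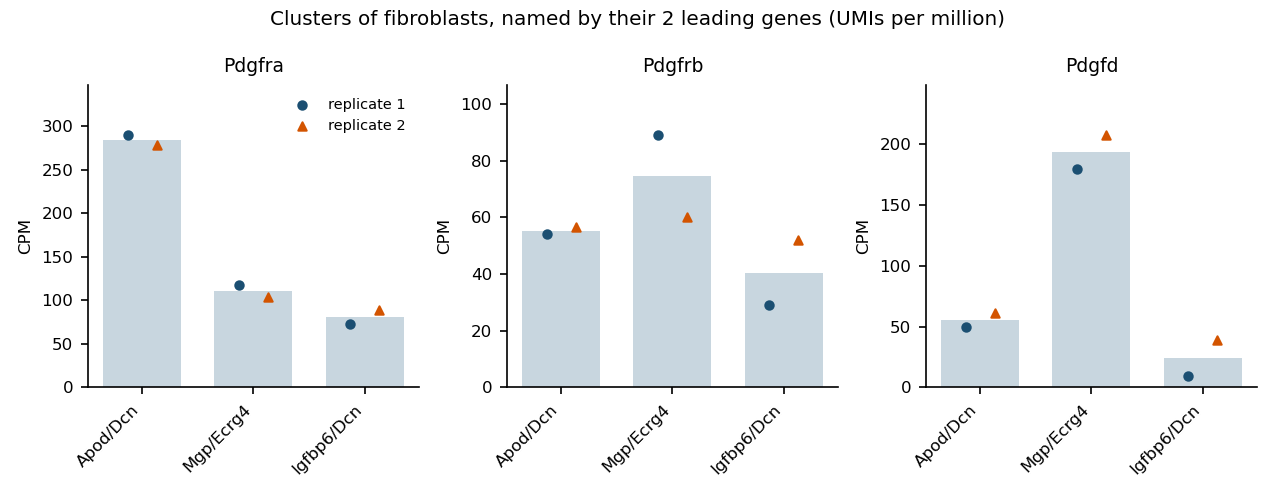
Level (CPM, y axis) of *Pdgfra*, *Pdgfrb* and *Pdgfd* in the 3 clusters of fibroblasts, each named by its 2 leading genes. Bars are means and points the 2 samples; *Pdgfra* is highest in the cluster led by *Apod* and *Pdgfd* in that led by *Mgp*.

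Mural cells were split further at a clustering resolution of 1.2. The largest cluster had 261 and 219 cells. It carried the pericyte markers *Kcnj8* (233 and 182 CPM), *Abcc9* (249 and 211 CPM) and *Higd1b* (601 and 543 CPM). It is called pericyte-like from these markers, although the smooth muscle genes *Acta2*, *Myh11* and *Tagln* were also among its leading genes. A cluster of 101 and 70 cells was smooth muscle-like, with 9949 and 10572 CPM of *Acta2* and 3505 and 3301 CPM of *Myh11* and under 8 CPM of *Kcnj8* and *Abcc9*. The mural cell marker *Ndufa4l2* was among the leading genes of both clusters, so their names rest on the markers given here. A cluster of 25 and 26 cells also held markers of both kinds. It had 4205 and 5413 CPM of *Acta2* and 181 and 176 CPM of *Kcnj8*.

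Pericyte-like cells had more *Pdgfrb*, 437 and 400 CPM, than smooth muscle-like cells, 155 and 158 CPM. The reverse held for *Pdgfd*, with 174 and 227 CPM against 393 and 493 CPM, and for *Pdgfc*, with 50.8 and 60.3 CPM against 121 and 112 CPM. *Pdgfa* was closer in both, with 363 and 342 CPM against 310 and 278 CPM, and was 70.4 and 70.3 CPM in the smallest cluster. None of these comparisons between clusters was tested. Thus mural cells of either kind carried a receptor together with ligands. Of 382 and 308 mural cells, 78.3% and 77.3% had UMIs of both *Pdgfrb* and *Pdgfa*, and 49.7% of the 690 in all had UMIs of both *Pdgfrb* and *Pdgfd*. *Pdgfd* was found in 54.9% of the mural cells with a UMI of *Pdgfrb* and in 81.5% of those without. For *Pdgfa* these shares were 85.9% and 90.8%. The median depth was 8688 UMIs with and 8619 UMIs without *Pdgfrb*, and these differences were not tested.

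**Figure D5:**
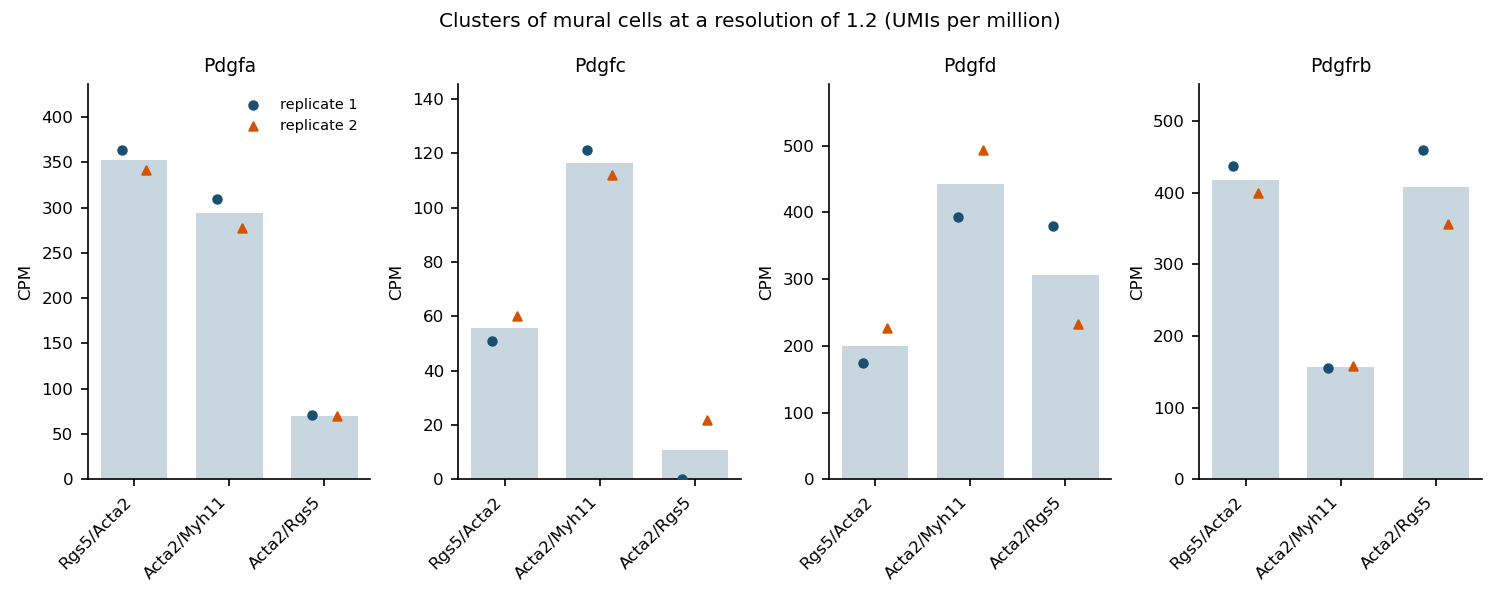
Level (CPM, y axis) of *Pdgfa*, *Pdgfc*, *Pdgfd* and *Pdgfrb* in the 3 clusters of mural cells at a resolution of 1.2, named by their 2 leading genes. Bars are means and points the 2 samples; *Pdgfrb* is lowest, and *Pdgfc* and *Pdgfd* highest on average, in the cluster led by *Acta2* and *Myh11*.

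Counted by cell type against the mean of the other types, mural cells were higher in 5 of the 6 genes, all 4 ligands and *Pdgfrb*, where 21.3% of all genes were higher in mural cells and 16.8% lower. Endothelial cells were higher in 3 ligands, *Pdgfb*, *Pdgfc* and *Pdgfd*, and lower in 2 genes (25.6% and 22.0% of all genes). Fibroblasts were higher in *Pdgfd* and both receptors and lower in 2 genes (25.8% and 17.4%). Macrophages were higher in *Pdgfb* alone and lower in 4 genes (26.3% and 24.6%). SGCs were higher in *Pdgfc* and lower in 3 genes (31.3% and 18.8%), and non-myelinating Schwann cells higher in *Pdgfa* and lower in *Pdgfrb* (19.1% and 13.7%). Myelinating Schwann cells were higher in *Pdgfa* and *Pdgfc* and lower in 1 gene (25.3% and 20.3%). Neurons were higher in none and lower in 4 genes (18.2% and 19.7%).

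Several of these calls changed with the processing. The lower call in neurons was lost for *Pdgfb* in 4 alternatives (cells called from the UMI total alone, over 1000 genes per cell, empty-droplet RNA subtracted and equal numbers of cells), for *Pdgfd* in 3 of these and for *Pdgfrb* in the first. In SGCs the lower calls of *Pdgfd* and *Pdgfra*, and in macrophages those of *Pdgfc* and *Pdgfd*, were lost with cells called from the UMI total alone and with equal numbers of cells, and that of *Pdgfra* also with over 1000 genes per cell. The log2 fold change of *Pdgfa* in myelinating Schwann cells was 0.29 (SE 0.10, adjusted p = 0.026, edgeR), and it was not called with DESeq2, without TMM normalization, at a resolution of 0.4, with equal numbers of cells or without the upper UMI cutoff. In neurons it was 0.31 (SE 0.22, adjusted p = 0.29, edgeR) and was called without TMM normalization or without that cutoff. The split of all calls also moved with the scaling. Higher genes made up 62.5% of the calls in SGCs against 43.1% with DESeq2, 55.5% against 45.2% in myelinating Schwann cells and 48.0% against 58.8% in neurons, and 51.6% against 40.8% without TMM normalization in macrophages. *Pdgfb* was not called in SGCs, myelinating Schwann cells and fibroblasts in the fit with neurons, which had no UMI of it, and was called lower in all 3 with DESeq2 or without neurons. *Pdgfrb* was not called in SGCs (0.18, SE 0.12) or myelinating Schwann cells (0.25, SE 0.13). It was called higher in the former without the cluster led by *Pou3f1* and in the latter without called doublets. In non-myelinating Schwann cells *Pdgfc* was called lower at a resolution of 0.4 and without neurons.

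Other genes of the pathway were examined as a list of 28 genes, all of which passed the filter. Mural and endothelial cells had 13 of the 28 genes higher and 7 lower each, where 21.3% and 25.6% of all genes were higher and 16.8% and 22.0% lower, with a median log2 fold change of 0.30 and 0.27 against -0.01 and -0.03 over all genes. Fibroblasts had 12 higher and 10 lower (median 0.27 against 0.04), where 25.8% and 17.4% of all genes were called. Macrophages had 11 and 11 (-0.15 against -0.08, with 26.3% and 24.6% of all genes called). SGCs had 10 and 11 (-0.02 against 0.09), with 31.3% and 18.8% of all genes called, and non-myelinating Schwann cells 10 and 9 (-0.18 against 0.03), with 19.1% and 13.7%. Myelinating Schwann cells had 7 and 13 (-0.22 against 0.03), with 25.3% and 20.3%, and neurons 2 and 14 (-0.69 against -0.34), with 18.2% and 19.7%. The higher counts in SGCs and myelinating Schwann cells were near the share of all genes.

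Of the co-receptors and ligand binding proteins, all 4 were higher in fibroblasts (25.8% of all genes) and 3 of 4 in mural cells (21.3%) and in SGCs (31.3%). *Pdgfrl*, which encodes a protein resembling the PDGF receptors, was at 137 and 102 CPM in fibroblasts, with a log2 fold change of 4.05 (SE 0.12), and at 43.8 and 47.5 CPM in mural cells (2.48, SE 0.17). *Lrp1*, a large endocytic receptor that can associate with the beta receptor, was at 388 and 384 CPM in fibroblasts (3.00, SE 0.071). *Nrp1*, a co-receptor of several growth factors, was at 495 and 405 CPM in endothelial cells (2.72, SE 0.10) and at 401 and 358 CPM in mural cells (2.47, SE 0.10). In endothelial cells (25.6% of all genes) and macrophages (26.3%), which had little of either receptor, 2 of the 4 were higher and 2 lower. SGCs also had a low level of either receptor, so these partners were not confined to types with a high level of one.

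Among the 6 proteases, 3 each were higher in endothelial cells, fibroblasts, mural cells and non-myelinating Schwann cells, where 25.6%, 25.8%, 21.3% and 19.1% of all genes were. *Plau*, which encodes urokinase, a protease known to activate PDGF-DD, was at 73.7 and 57.6 CPM in macrophages (log2 fold change 6.67, SE 0.18) and at 7.21 and 6.98 CPM in fibroblasts (2.80, SE 0.26). *St14*, which encodes matriptase, another activator of PDGF-DD, had 12 and 21 UMIs in endothelial cells, or 3.61 and 5.47 CPM (6.04, SE 0.63). The proprotein convertases, which process growth factor precursors, were found in glia as well. *Pcsk5* was at 202 and 209 CPM in SGCs (1.81, SE 0.089), and *Pcsk6* at 23.3 and 19.4 CPM in non-myelinating Schwann cells (3.08, SE 0.28), 11.6 and 12.4 CPM in myelinating ones (2.26, SE 0.32) and 8.76 and 9.19 CPM in mural cells (1.74, SE 0.50).

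All 5 phosphatases and ubiquitin ligases that act on the receptors were higher in macrophages (26.3% of all genes), and 4 of 5 were lower in neurons (19.7%). *Ptprj*, which encodes a receptor-type tyrosine phosphatase, was at 721 and 625 CPM in macrophages (log2 fold change 2.91, SE 0.091), 406 and 400.4 CPM in non-myelinating Schwann cells (1.80, SE 0.097) and 309 and 283 CPM in myelinating ones (1.42, SE 0.098). Of the 13 adaptors and effectors, 6 were higher in endothelial cells (25.6% of all genes), 5 in mural cells (21.3%), 4 in fibroblasts (25.8%) and in non-myelinating Schwann cells (19.1%), 3 in SGCs (31.3%) and in myelinating Schwann cells (25.3%), and 2 in macrophages (26.3%) and in neurons (18.2%). Most of these counts were near the share of all genes. *Plcg1*, the phospholipase downstream of many receptor kinases, was at 63.8 and 62.5 CPM in endothelial cells (3.50, SE 0.10). *Src*, a kinase recruited to active receptors, was at 40.9 and 40.0 CPM in SGCs (1.83, SE 0.084), with the adaptor *Nck2* at 65.2 and 67.8 CPM (1.05, SE 0.087). *Gab1*, a docking protein, was at 387 and 408 CPM in non-myelinating and 308 and 307 CPM in myelinating Schwann cells (1.42, SE 0.10 and 1.13, SE 0.10). *Grb2*, an adaptor that links receptors to Ras, was at 299 and 324 CPM in macrophages (2.16, SE 0.082). In neurons, the 2 genes called higher were *Shc1*, with 43 and 23 UMIs (1.15, SE 0.22), and *Sos1*, with 47 and 61 UMIs (0.59, SE 0.16).

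The genes whose levels ran most alike with a PDGF gene were found by Pearson's correlation of log2(CPM + 1) over the 16 profiles of 8 types and 2 samples, among 17862 genes. These correlations describe the order of cell types, since the profiles of a sample share a library and those of a type differ little. For *Pdgfa* they included *Kcnj12* (r = 0.94) and *4930520O04Rik* (0.91), and for *Pdgfb* they were *Serinc3*, *AU019990* and *Phf11d* (0.97 each). For *Pdgfc* they included the opposite-strand gene *Gm16000* (0.89) and *Nes* (0.88), and for *Pdgfd* they were *Gm30003* (0.97), *Rgs16* (0.96) and *Spry1* (0.95). *Pdgfra* ran with *Osr2*, *H19* and *Gdf5* (0.98 each), and *Pdgfrb* with *Dmpk* (0.96), *Hoxb2* (0.94) and *Tagln* (0.94), a smooth muscle gene that is among the markers used to name mural cells.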

How the data were processed

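Single cells of L4 and L5 DRGs were profiled in 2 samples with a 10x Chromium 3' kit. The authors deposited raw UMI counts per gene and barcode for all barcodes, made with Cell Ranger 7.1.0 on mm10 according to the labels; the annotation used is not given in the sources used here. Cells were called from the UMI total and then by a test against empty droplets (barcode ranks 45000 to 90000, 10000 simulations, false discovery rate 0.01, at least 500 UMIs), and needed over 300 genes. Cells beyond 5 median absolute deviations, above 46561 UMIs or 21.9% mitochondrial UMIs, were removed. Clusters were made with Seurat 5.3.0 and sctransform 0.4.2 (3000 variable genes, 30 components, resolution 0.8). None of the 6 PDGF genes was allowed among the variable genes, so none shaped the clusters. A cluster was named from at least 3 markers among its 50 leading genes. A cluster of mixed markers and a mitochondrial one were left unnamed. Doublets were called with Scrublet in Scanpy 1.11.5 (2.67% and 2.87% of cells) and removed only as an alternative.

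UMIs were summed per sample and cell type, giving 16 profiles. Genes with at least 10 counts in 2 profiles were tested with edgeR 4.0.16 (quasi-likelihood test after TMM normalization), each type against the equally weighted mean log level of the other types and against its neighbour in the order of levels. Adjustment was by Benjamini-Hochberg over all 17863 genes per contrast, with a threshold of 0.05. A type can therefore be called higher although its CPM lies below the arithmetic mean of the others, as for *Pdgfa* in myelinating Schwann cells (42.3 CPM against 78.2 CPM). The SE of a log2 fold change was taken as its absolute value divided by the square root of the F statistic of the quasi-likelihood test. CPM were printed without TMM. DESeq2 1.42.0 was an alternative. The tests were checked on simulated counts.

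Profiles of a replicate come from the same dissociation, so their numbers pair the profiles. After the mean of each type was removed, same-numbered profiles had a median correlation of 0.042 over 28 pairs of types. The samples differed by more than counting noise (chi-square per degree of freedom 14.7 over 21268 genes). The genes and lists were chosen with earlier results of these data known. The text names all 6 PDGF genes, up to 3 genes of the pathway list per type, namely those past the threshold with the largest fold, and the 3 genes most correlated with each, of which some are not reported here. Cluster markers named for mural cells, SGCs and endothelial cells were added after their values were seen.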

Additional observations from a re-analysis of the deposited data

How the results depend on the processing

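In all 15 tested alternatives, each of the 6 genes stayed higher in its highest type against the other types. Of all values under an alternative, 360 kept their direction and call or stayed within the spread, 20 moved beyond the spread, 9 fell short of the threshold or of the reported count, 1 newly passed and none reversed. The step of *Pdgfc* from SGCs to myelinating Schwann cells was not called with DESeq2 (0.41, adjusted p = 0.061), with cells called from the UMI total alone (0.24, adjusted p = 0.16), with equal numbers of cells (0.077, adjusted p = 0.92) or without the SGC cluster led by *Pou3f1* (0.073, adjusted p = 0.69, edgeR). That alternative and those without the upper UMI cutoff, the doublet cluster, neurons or TMM normalization were chosen after seeing the data. *Pdgfd* in endothelial over mural cells passed at resolution 0.4 (0.54, adjusted p = 0.026, edgeR), while over all alternatives its adjusted p reached 0.61. With the replicate block this difference was 0.48 (adjusted p = 0.054, edgeR), and the block changed no call of the 6 genes.

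Fits that left out a sample had no residual degrees of freedom and gave values without a test. They ranged from 6.93 to 7.09 for *Pdgfb* in endothelial cells, 2.00 to 2.08 for *Pdgfc* in SGCs, 5.42 to 6.56 for *Pdgfd* in endothelial cells and 7.30 to 9.42 for *Pdgfra* in fibroblasts, all against the other types, and 0.41 to 0.47 for *Pdgfc* in SGCs over myelinating Schwann cells.

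Shares of cells with a UMI moved with the thinning depth. At 500 and 2000 UMIs they were 15.4% and 44.9% for *Pdgfa*, 9.50% and 36.1% for *Pdgfb*, 5.85% and 19.1% for *Pdgfc*, 15.0% and 43.8% for *Pdgfd*, 9.75% and 28.8% for *Pdgfra*, and 18.3% and 53.0% for *Pdgfrb*. Without called doublets those of *Pdgfd* and *Pdgfra* were 26.6% and 18.0%, and without the cluster led by *Pou3f1* that of *Pdgfc* was 7.95%. With 125 cells drawn per type and sample, 2696 genes were higher in fibroblasts (4615 with all cells), 2441 in mural cells (3802) and 2450 in SGCs (5595), and 13 list genes passed in endothelial (20) and 12 in mural cells (20), with fewer UMIs per profile. DESeq2 moved the median log2 fold change of all genes from 0.09 to -0.08 in SGCs, from 0.03 to -0.09 in myelinating Schwann cells and from -0.34 to 0.07 in neurons, and leaving out TMM moved it from -0.08 to -0.25 in macrophages. Values of neurons, with the fewest UMIs, were the most limited by depth.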

Other observations

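Cells left out of the named types held PDGF transcripts as well. A cluster of 131 and 210 cells led by *Rgs5* and *Acta2*, which also carried SGC markers, had 95.5 and 77.7 CPM of *Pdgfa*, 84.4 and 68.2 CPM of *Pdgfc*, 42.2 and 34.1 CPM of *Pdgfd* and 88.9 and 81.5 CPM of *Pdgfrb*. Its *Pdgfra* level, 2.22 and 18.9 CPM, came from 1 and 10 UMIs. A cluster of 131 and 140 cells led by mitochondrial genes had 52.7 and 60.4 CPM of *Pdgfc* and 10.9 and 11.7 CPM of *Pdgfa*.

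The opposite-strand genes had few UMIs. In mural cells, *6330403L08Rik* had 52 and 46 UMIs against 1177 and 952 UMIs of *Pdgfa*. In macrophages, *Gm41361* had 14 and 18 UMIs against 299 and 209 UMIs of *Pdgfb*. *Gm42802* was found in fibroblasts alone, with 1 and 4 UMIs.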
